A study of Mus musculus with 6 samples.

Results

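The genes described here encode the proteases that cut membrane proteins in and beside the lipid bilayer: Sppl2a, Sppl2b, Sppl3, Hm13, Psen2, Adam10 and Adam17, together with Rhbdf1 and Rhbdf2, which encode the iRhom partners of ADAM17. They were chosen by gene symbol, as 9 of the 25001 loci listed for each library, and 1 row was taken for each symbol. The data were FPKM values (fragments scaled to transcript length and to the size of the library) from mRNA sequencing of mouse 427.1.86 thymoma cells in 6 conditions, with 1 library per condition. The libraries 427 DMSO and 427 PMA came from wild type cells that carried the empty pSUPER vector, and were kept without serum for 2 h and then given DMSO or 1 µM PMA, a phorbol ester that activates protein kinase C, for 2 h. The libraries KD DMSO and KD PMA came from 427.1.86 cells labelled as an SPPL2b knockdown, treated with DMSO or with the same dose of PMA. The libraries KD GFP and KD GFP + EICD came from cells labelled as the knockdown that had been transfected with a GFP vector alone, or with GFP and Flag-tagged EICD, and sorted for GFP. EICD is the intracellular domain of epithin/PRSS14, a membrane serine protease that St14 encodes. The series was made to look for genes that respond to EICD, by raising EICD through PMA-induced shedding or transfection and by lowering SPPL2b. The labels name an siRNA against SPPL2b, whereas the methods of the study describe a stably integrated short hairpin RNA. Because such cells derive from single clones, the label, the clone and its passage history cannot be told apart.

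Ectodomain shedding and intramembrane proteolysis act in sequence. ADAM10 and ADAM17 are zinc metalloproteases that cut transmembrane proteins close to the outer face of the membrane, and the iRhoms carry ADAM17 through the secretory pathway and stay with it at the cell surface. The stub that remains can then be cut inside the membrane by aspartyl proteases: the presenilins, working within γ-secretase, cut stubs of type I orientation, while signal peptide peptidase (encoded by Hm13) and its relatives SPPL2a, SPPL2b and SPPL3 cut proteins of type II orientation, the orientation of epithin/PRSS14.

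The intramembrane members share a catalytic GXGD motif, whose codons are given in capitals to show how far apart the family lies at the level that sequencing reads see. The sequences were read 5′ to 3′ on the coding strand from GENCODE transcripts of GRCm38 and carry 15 bases of coding sequence on either side. Those of Sppl2a (chr2:126908179-126912682, minus strand, exons 12 and 13 of 15), Sppl2b (chr10:80865668-80866053, plus strand, exons 12 and 13 of 15), Hm13 (chr2:152691837-152694488, plus strand, exons 8 and 9 of 13) and Psen2 (chr1:180228921-180229386, minus strand, exons 9 and 10 of 11) are joined across an intron. That of Sppl3 (chr5:115095064-115095105, plus strand) lies within exon 9 of 11.
Sppl2a: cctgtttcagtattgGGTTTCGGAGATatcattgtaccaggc
Sppl2b: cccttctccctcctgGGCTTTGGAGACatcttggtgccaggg
Sppl3: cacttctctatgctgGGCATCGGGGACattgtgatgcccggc
Hm13: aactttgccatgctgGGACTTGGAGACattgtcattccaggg
Psen2: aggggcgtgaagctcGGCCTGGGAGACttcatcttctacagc

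The ADAM members share the zinc-binding motif HEXXHXXGXXH instead, with its codons again in capitals. The Adam10 stretch (chr9:70754281-70761600, plus strand) joins exons 9 and 10 of 16, and the Adam17 stretch (chr12:21336717-21336779, minus strand) lies in exon 12 of 20.
Adam10: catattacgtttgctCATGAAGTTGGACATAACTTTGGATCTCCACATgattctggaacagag
Adam17: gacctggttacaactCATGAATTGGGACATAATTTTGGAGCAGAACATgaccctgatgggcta
The longest run of bases common to transcripts of a pair was 17 for Sppl2a and Sppl2b, 27 for Sppl2a and Sppl3, 15 for Adam10 and Adam17 and 35 for Rhbdf1 and Rhbdf2, each a small part of a transcript.

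Sequencing depth, estimated from the smallest FPKM steps, was 25900000 to 30500000 fragments, and 10555 to 10873 loci reached an FPKM of 1. Epithelial markers were high, with 7 of 8 at an FPKM of 1 or more and a summed FPKM of 6641 to 15141, mostly Krt5 and Krt14. None of 9 T cell and other leukocyte markers reached 1 (summed FPKM 0.0584 to 0.377, with Cd3e, Cd4 and Thy1 at 0 throughout), and none of 4 fibroblast markers did (summed 0.185 to 0.501). The labelled thymoma line thus carried epithelial markers and not those of T cells. With 1 library per condition no spread between replicates exists, no p-value is given, and each difference compares libraries rather than conditions. Log2 differences have 0.01 added to both FPKM values. The 95% intervals beside them come from estimated fragment numbers and cover counting error only, and because those numbers are upper estimates the intervals are likely too narrow.

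Sppl2b, the gene that the knockdown was aimed at, was not lower in the libraries labelled KD. Its FPKM was 9.90 in 427 DMSO, 6.86 in 427 PMA, 13.4 in KD DMSO, 9.37 in KD PMA, 11.4 in KD GFP and 13.2 in KD GFP + EICD. The libraries labelled KD were higher than the 427 library at the same treatment in both cases, by 1.35-fold with DMSO (log2 0.44, counting interval 0.32 to 0.56) and 1.37-fold with PMA (log2 0.45, interval 0.31 to 0.59). The targeted gene therefore went against the label at the level of this locus, and each direction drawn below between the lines is between libraries labelled KD and libraries labelled wild type. An estimated 749 to 1261 fragments stood behind each Sppl2b value. These are mRNA levels of a whole locus, and they hold no measurement of SPPL2b protein. In bulk RNA, fewer cells that express a gene and less RNA per cell cannot be told apart.

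The Sppl2b locus as assembled (chr10:80853006-80868705, plus strand, GRCm38) began upstream of the annotated start at 80855275. That extension put 2204 bases of it over Lsm7, a gene for an RNA-binding Sm-like protein on the opposite strand, and no strand setting is stated for the counting. Lsm7 had an FPKM of 69.5 in 427 DMSO, 74.3 in 427 PMA, 33.6 in KD DMSO, 60.8 in KD PMA, 64.9 in KD GFP and 41.4 in KD GFP + EICD. Lsm7 was thus lower in the KD library at each treatment, where Sppl2b was higher. Its part in the Sppl2b values was not tested.

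**Figure D1:**
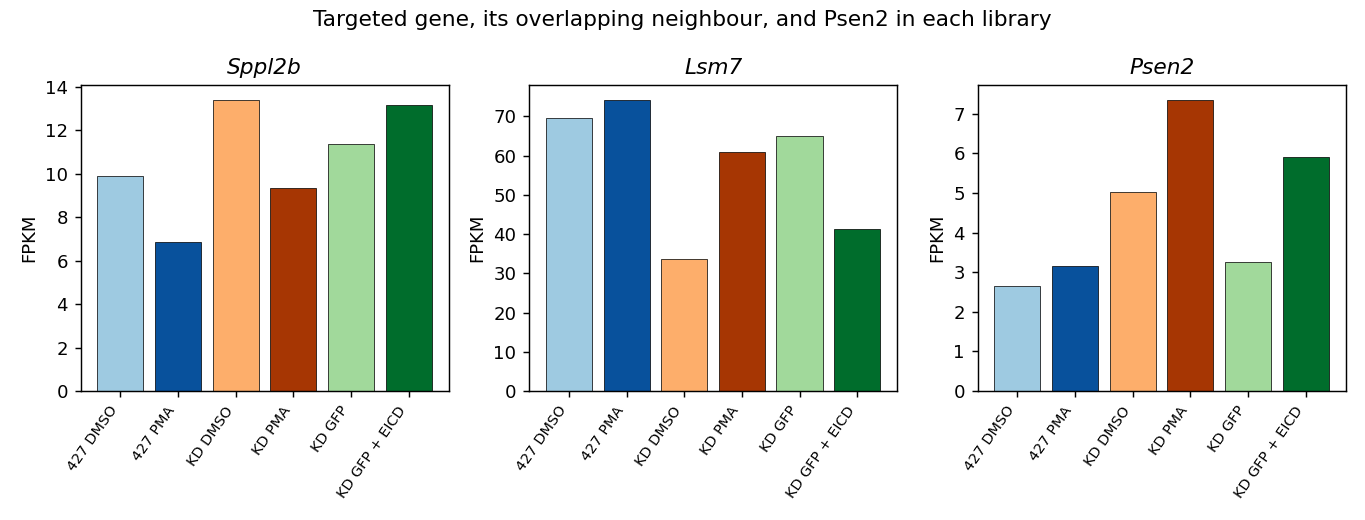
FPKM (vertical axes, starting at 0) of Sppl2b, its overlapping neighbour Lsm7, and Psen2 in each of the 6 libraries, with 1 bar per library and no replicates. Sppl2b stood at 13.4 in KD DMSO against 9.90 in 427 DMSO, Lsm7 at 33.6 against 69.5, and Psen2 at 5.03 against 2.66.

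Among the intramembrane proteases, Hm13, Sppl3 and Sppl2a were abundant and Sppl2b was scarce. Sppl2a (chr2:126890391-126933238, minus strand), whose product works in late endosomes and lysosomes, had an FPKM of 54.5, 56.2, 61.0, 61.3, 65.5 and 73.0 in 427 DMSO, 427 PMA, KD DMSO, KD PMA, KD GFP and KD GFP + EICD. It exceeded its close relative Sppl2b by 4.55-fold in KD DMSO to 8.20-fold in 427 PMA, on the per-length FPKM scale. Sppl3, which encodes a Golgi protease that cuts glycan-modifying enzymes, had 62.4, 39.9, 61.2, 41.7, 67.1 and 67.9 in the same order. Its PMA libraries were the lowest pair, below all 4 others. The remaining relative, Sppl2c, was listed at 0 in every library.

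Hm13, which encodes signal peptide peptidase of the endoplasmic reticulum, had an FPKM of 91.6, 94.4, 97.3, 84.1, 244.2 and 223.5 in the same order. The transfected and sorted libraries stood apart from the 4 others. Its row, however, covered chr2:152669405-152737410 (plus strand), 68006 bases against the 39210 annotated for the gene, and took in Id1, which had no row of its own. The value of that row is therefore a sum over Hm13 and any reads of Id1.

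Psen2, a catalytic presenilin of γ-secretase found mainly in late endosomes and lysosomes, was the lowest of the 9 genes in every library. Its FPKM was 2.66 in 427 DMSO, 3.16 in 427 PMA, 5.03 in KD DMSO, 7.36 in KD PMA, 3.26 in KD GFP and 5.89 in KD GFP + EICD. The untransfected KD libraries were above both 427 libraries, and KD GFP lay just above the higher of those. Only an estimated 158 to 453 fragments stood behind each value, against 749 to 33298 for the other genes.

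The sheddase genes varied least. Adam17 (chr12:21323509-21373644, minus strand), which encodes the main protease of PMA-induced shedding in many cells, had an FPKM of 35.0, 33.5, 34.8, 37.1, 34.9 and 37.5 in the same order, a ratio of highest to lowest of 1.12. Adam10 (chr9:70678997-70780229, plus strand), which encodes a sheddase of Notch and cadherins, had 60.1, 50.6, 53.8, 45.4, 47.4 and 48.4. Its ratio of highest to lowest was 1.32, close to the 1.34 of Sppl2a. Adam10 was above Adam17 in all 6 libraries, by 1.22-fold to 1.72-fold.

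Rhbdf1 and Rhbdf2 were both higher with PMA. Rhbdf1 (iRhom1, chr11:32209585-32222300, minus strand) had an FPKM of 50.6 in 427 DMSO, 94.0 in 427 PMA, 40.2 in KD DMSO, 84.4 in KD PMA, 53.5 in KD GFP and 53.8 in KD GFP + EICD. Its PMA libraries were above all others. Rhbdf2 (iRhom2, chr11:116597743-116627019, minus strand), which is best known from immune cells and skin, had 17.1, 28.3, 16.1, 21.7, 16.6 and 26.4, so that the EICD library lay between the PMA libraries. Rhbdf1 exceeded Rhbdf2 by 2.04-fold in KD GFP + EICD to 3.88-fold in KD PMA.

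The order of the levels was stable at the bottom and not at the top. Adam17, Rhbdf2, Sppl2b and Psen2 took the last places, in that order, in all 6 libraries. Hm13 was highest in 5 libraries and Rhbdf1 in KD PMA. Sppl3, Sppl2a, Adam10 and Rhbdf1 exchanged places between 39.9 and 94.0 FPKM, and their order differed between libraries with no replicate to set its spread. Among the loci that reached an FPKM of 1 in the same library, Psen2 exceeded 10.3% to 25.5% and Hm13 exceeded 89.2% to 97.1%.

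**Figure D2:**
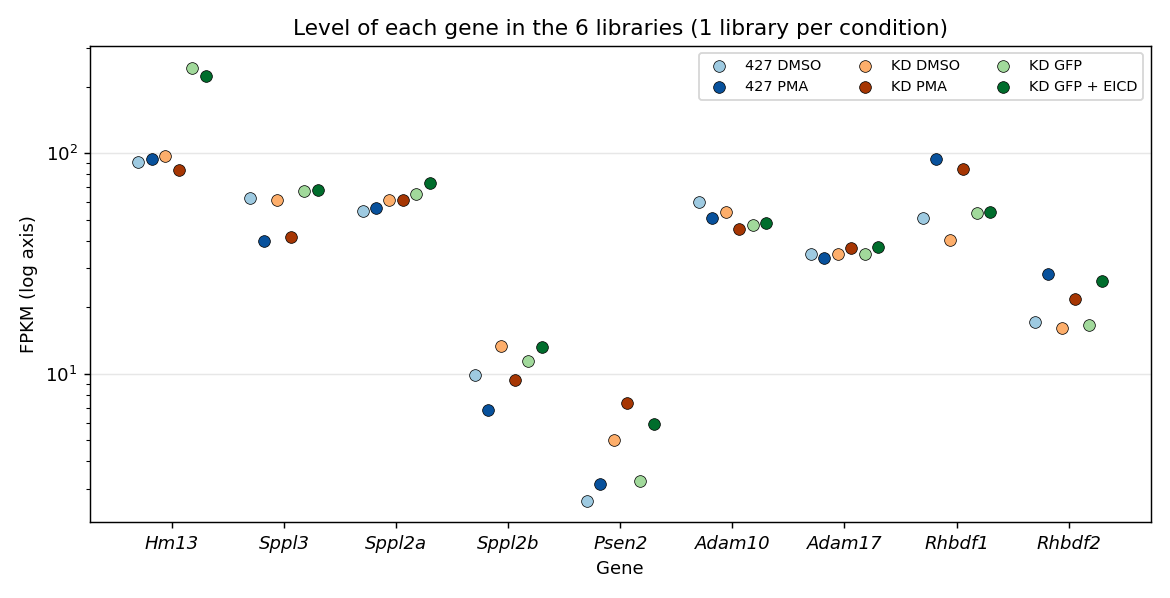
FPKM of the 9 genes (logarithmic vertical axis) with 1 point per library, coloured by condition. The points of Adam17 nearly coincide between 33.5 and 37.5, those of Rhbdf1 split into PMA (84.4 and 94.0) and other libraries (40.2 to 53.8), and those of Hm13 split into transfected (223.5 and 244.2) and untransfected libraries (84.1 to 97.3).

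The comparison of PMA with DMSO asked how the machinery of shedding and intramembrane cleavage stood when shedding was induced. Past 1.5-fold were 3 of the 9 genes in 427 cells, with Rhbdf1 and Rhbdf2 higher and Sppl3 lower, beside 23.6% of the 10981 loci compared. In cells labelled KD only Rhbdf1 of the 9 passed 1.5-fold, beside 25.5% of 10987 loci, and it was also the only one past 2-fold, beside 10.2%. None passed 2-fold in 427 cells, where 9.44% of loci did. A share of 1 or 3 in 9 lies near those backgrounds, so the counts do not set these genes apart from other loci. The median locus stood at log2 -0.12 in 427 cells and -0.15 in cells labelled KD, while the median of the 9 genes was 0.04 and 0.01.

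Rhbdf1 had the largest PMA difference of the 9 in both lines. It was 1.86-fold higher in 427 cells (log2 0.89, counting interval 0.85 to 0.93) and 2.1-fold higher in cells labelled KD (log2 1.07, interval 1.02 to 1.12), which is above 94.9% and 96.5% of loci. Measured from the median locus the differences were 1.01 and 1.22. Being past 1.5-fold upward in both lines, as Rhbdf1 was, was seen for 5.87% of 11281 loci. Rhbdf2 was 1.65-fold higher in 427 cells (log2 0.72, interval 0.64 to 0.80) and 1.35-fold higher in cells labelled KD (log2 0.44, interval 0.35 to 0.53).

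Sppl3 and Sppl2b were lower with PMA in both lines. Sppl3 was 1.56-fold lower in 427 cells (log2 -0.64, interval -0.70 to -0.59) and 1.47-fold lower in cells labelled KD (log2 -0.55, interval -0.61 to -0.49). Sppl2b was 1.44-fold and 1.43-fold lower (log2 -0.53 and -0.52). Measured from the median locus, the Sppl3 differences were -0.53 and -0.40 and those of Sppl2b -0.41 and -0.37. Scaled to an equal median ratio between libraries, Sppl3 in 427 cells stood at -0.55 and was no longer past 1.5-fold. The Sppl3 locus (chr5:115011137-115098790, plus strand) overlaps 607 bases of Gm10401 on the opposite strand, whose FPKM was 42.2, 26.8, 40.3, 28.1, 45.3 and 48.5 in the order 427 DMSO, 427 PMA, KD DMSO, KD PMA, KD GFP and KD GFP + EICD. Gm10401 was thus lowest in the same libraries as Sppl3, and its part in the Sppl3 values was not tested. A further row named Sppl3, newly assembled on the minus strand, held 1.1 to 2.5 FPKM and was left out by the rule.

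The other genes differed less with PMA, apart from Psen2. Adam10 was lower by the same amount in both lines (log2 -0.25 and -0.25), and Sppl2a differed by 0.05 and 0.01. Psen2 was higher by 0.25 (interval -0.06 to 0.55) in 427 cells and by 0.55 (interval 0.33 to 0.77) in cells labelled KD. Adam17 stood at -0.06 and 0.09, and Hm13 at 0.04 and -0.21. In cells labelled KD, Psen2 passed 1.5-fold with upper-quartile (0.60) or median-ratio scaling (0.67). Scaled to an equal FPKM sum, Sppl2a and Hm13 turned lower in 427 cells (-0.20 and -0.21), Psen2 came to -0.0025, Rhbdf2 fell short of 1.5-fold (0.47) and Sppl2b passed it (-0.78). The genes past 1.5-fold there were then Rhbdf1, Sppl2b and Sppl3.

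The PMA differences were also subtracted between the lines, KD minus 427. The values were -0.29 for Rhbdf2 (interval -0.41 to -0.16), -0.25 for Hm13 (interval -0.30 to -0.21), 0.30 for Psen2 (interval -0.07 to 0.68), 0.18 for Rhbdf1, 0.16 for Adam17 and 0.09 for Sppl3. Those of Sppl2b, Adam10 and Sppl2a were 0.01, 0.00 and -0.04. Over all 11281 loci the quartiles were -0.18 and 0.15, and 5 of the 9 genes lay outside them, which is about the share that quartiles leave outside by definition. None of these differences could be tested.

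**Figure D3:**
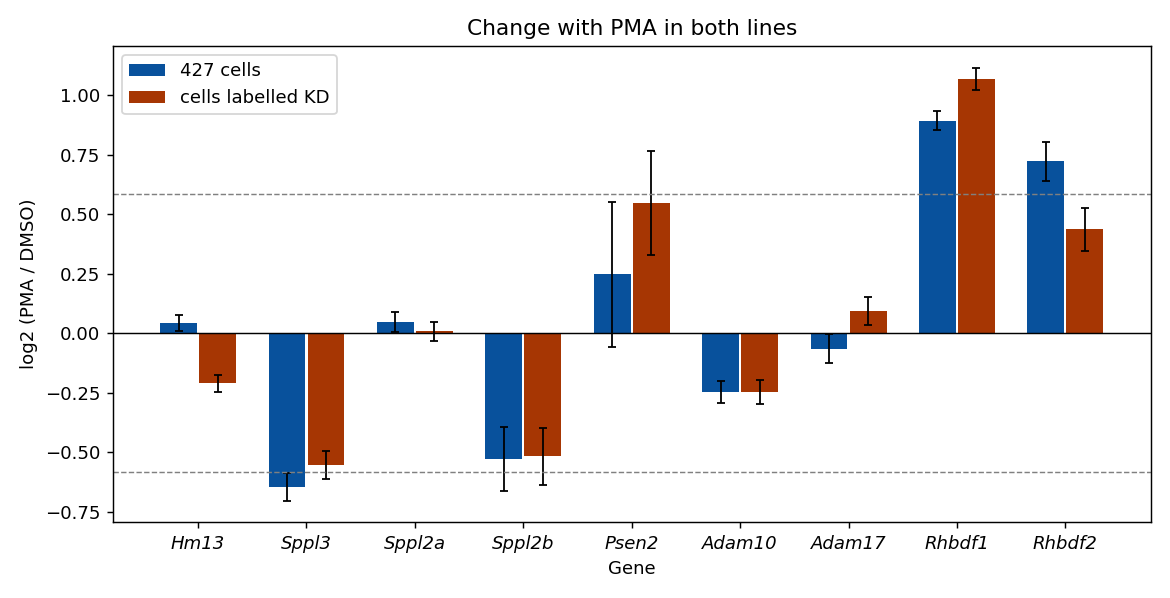
Log2 ratio of PMA to DMSO for each gene (vertical axis) in 427 cells (blue) and in cells labelled KD (brown), with 95% counting intervals as error bars and dashed lines at 1.5-fold. Rhbdf1 reaches 0.89 and 1.07, Sppl3 reaches -0.64 and -0.55, and the widest intervals belong to Psen2.

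The comparison of lines at one treatment addressed what the knockdown label went with. With DMSO, 1 of the 9 genes passed 1.5-fold, Psen2, and none passed 2-fold, beside 16.2% and 7.05% of 11078 loci. With PMA, Psen2 was again the only one past 1.5-fold, and it also passed 2-fold, beside 13.8% and 5.83% of 10840 loci. Psen2 was 1.89-fold higher in the library labelled KD with DMSO (log2 0.92, interval 0.63 to 1.20) and 2.33-fold higher with PMA (log2 1.22, interval 0.97 to 1.46), above 95.5% and 98.3% of loci. A transcript on the opposite strand, Gm31728, overlapped 7010 bases of the Psen2 locus (chr1:180227004-180263438, minus strand) and had no row of its own.

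The other 7 genes beside Psen2 and Sppl2b differed between the lines by -0.38 to 0.16 on the log2 scale. Rhbdf1 was lower in the library labelled KD by 1.26-fold with DMSO (log2 -0.33) and 1.11-fold with PMA (log2 -0.16), and Rhbdf2 stood at -0.09 and -0.38. Adam10 was at -0.16 under both treatments. Sppl2a, the relative closest to Sppl2b, was at 0.16 and 0.12, and Sppl3 at -0.03 and 0.06. These directions hold for FPKM as deposited. Scaling to an equal FPKM sum, which 10 loci dominate (85.6% to 94.2% of the sum), moved the median locus to 1.02 and 1.28, and then all 9 genes were higher in the library labelled KD.

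The comparison of EICD with GFP addressed what EICD itself went with, in sorted cells labelled KD. Rhbdf2 and Psen2 passed 1.5-fold, 2 of the 9 genes, and none passed 2-fold, beside 14.0% and 4.76% of 11000 loci. Rhbdf2 was 1.59-fold higher with EICD (16.6 and 26.4 FPKM, log2 0.67, interval 0.58 to 0.75), above 91.3% of loci, while Rhbdf1 differed by 0.01 (interval -0.04 to 0.06). Psen2 was 1.81-fold higher (3.26 and 5.89 FPKM, log2 0.85, interval 0.58 to 1.12). Sppl2b, Sppl2a and Adam17 were higher by 0.21, 0.16 and 0.10, Adam10 and Sppl3 by 0.03 and 0.02, and Hm13 was lower (log2 -0.13). The directions of Rhbdf1, Sppl3 and Adam10 changed with each other scaling tried. An equal FPKM sum also turned those of Sppl2a and Adam17, and left Rhbdf2 at 0.48 and Psen2 at 0.67. St14 had 69.6 FPKM with GFP and 614.5 with EICD, and its transcript shares sequence with the transfected construct.

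The comparison of KD GFP with KD DMSO addressed what transfection and sorting went with, and serum deprivation is stated for the DMSO library only, so these cannot be told apart. Past 1.5-fold were Hm13, higher, and Psen2, lower, 2 of the 9 genes beside 21.8% of 11066 loci, and Hm13 alone passed 2-fold beside 9.15%. The Hm13 locus was 2.51-fold higher (97.3 and 244.2 FPKM, log2 1.33, interval 1.30 to 1.36), above 97.5% of loci. Psen2 was 1.54-fold lower (log2 -0.62, interval -0.90 to -0.35), though not past 1.5-fold with median-ratio scaling (-0.54), and Rhbdf1 was 1.33-fold higher (log2 0.41).

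Id1, the gene that the Hm13 row also spans, encodes an inhibitor of basic helix-loop-helix factors, and its relatives were looked up after these values were seen. Id2 had an FPKM of 4.78, 2.09, 5.36, 1.78, 42.9 and 55.3 in 427 DMSO, 427 PMA, KD DMSO, KD PMA, KD GFP and KD GFP + EICD. Id3 had 26.0, 24.3, 32.1, 21.9, 83.8 and 128.8. Both were highest in the libraries where the Hm13 row was highest, whereas Id4 was lowest there (1.51 and 1.40, against 2.26 to 2.75). From KD GFP to KD GFP + EICD, however, Id2 and Id3 were higher while the Hm13 row was lower (244.2 and 223.5). Mcts2, which lies within Hm13 on the same strand (chr2:152687035-152687946), had 8.50 to 10.3 in the untransfected libraries and 11.8 and 12.2 in the transfected ones. How much of the Hm13 value came from Id1 reads was not tested.

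**Figure D4:**
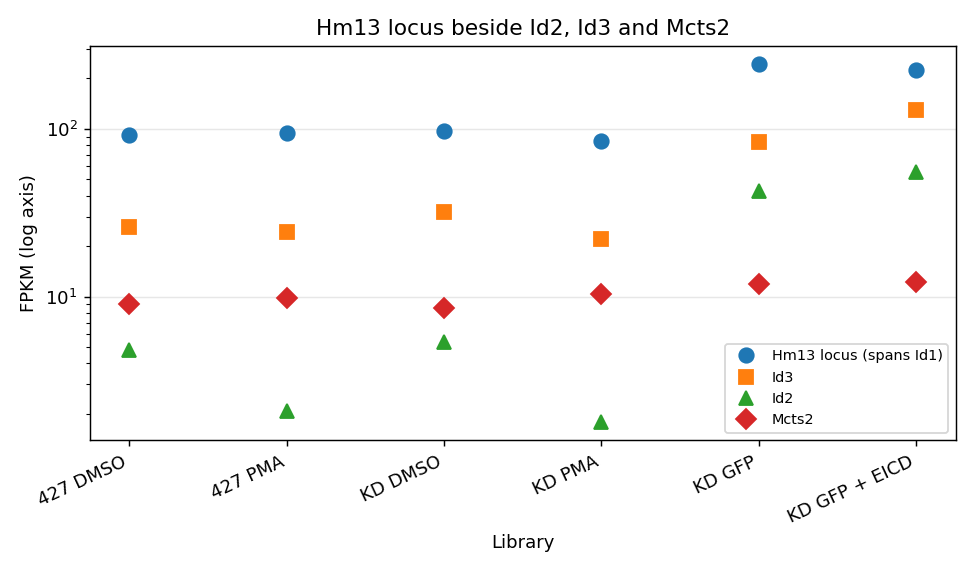
FPKM (logarithmic vertical axis) of the Hm13 locus, which spans Id1, beside Id2, Id3 and Mcts2 in the 6 libraries. The Hm13 row goes from 84.1 to 97.3 in the untransfected libraries to 223.5 and 244.2 in the transfected ones, Id2 from at most 5.36 to 42.9 and 55.3, and Mcts2 stays between 8.50 and 12.2.

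The other subunits of γ-secretase were followed as the complex in which Psen2 works, and 5 of 6 reached an FPKM of 1. None was past 1.5-fold upward with PMA, 1 was lower in 427 cells and 2 were lower in cells labelled KD, beside 23.6% and 25.5% of loci past it in either direction. Aph1b, a scaffold subunit, was lower with PMA in both lines (3.90 and 0.928 FPKM in 427 cells, 5.53 and 1.56 in cells labelled KD), and it shares a run of 341 bases with Aph1c, so reads could be split between them. In 427 cells Aph1b, the 1 lower subunit, passed the minimum FPKM only through the DMSO library, so it could only count as lower. Psenen, the subunit that activates presenilin, was lower past 1.5-fold in cells labelled KD (55.6 and 36.4). Ncstn, the substrate receptor nicastrin, was higher in the library labelled KD with DMSO (32.8 and 54.3), the only subunit past 1.5-fold there, and Ncstn and Aph1b were past it with PMA, beside 16.2% and 13.8% of loci. With PMA, Aph1b (0.928 and 1.56) passed the minimum FPKM only through the KD library, so it could only count as higher. Ncstn was just past 1.5-fold with PMA (log2 0.589). None passed it between EICD and GFP, beside 14.0%, and Psenen alone was lower past it in KD GFP against KD DMSO (55.6 and 33.1), beside 21.8%. With 5 subunits measured, these counts are too small to set against the background.

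Of 15 other membrane proteases, 14 had a row and 10 reached an FPKM of 1 in each comparison. With PMA, 1 was lower past 1.5-fold in 427 cells, and 1 was higher and 1 lower in cells labelled KD, below the 23.6% and 25.5% of all loci. Bace1, the β-secretase of amyloid precursor protein, was lower with PMA in both lines (27.4 and 14.4 FPKM in 427 cells, 27.3 and 16.7 in cells labelled KD). Adam8 was past 1.5-fold upward with PMA in cells labelled KD (24.8 and 42.4). In 427 cells it was also higher (26.8 and 39.6, log2 0.56), just short of 1.5-fold. Rhbdd1, a rhomboid protease of the endoplasmic reticulum, was the only one past 1.5-fold with EICD (9.60 and 19.8). The medians of the list with PMA, -0.18 in 427 cells and -0.15 in cells labelled KD, were close to those of all loci.

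Among partners and inhibitors of the ADAMs and iRhoms, 1 was higher and 2 were lower with PMA, of 11 measured in 427 cells and of 9 in cells labelled KD. Over all loci 8.80% were higher and 14.8% lower past the same fold in 427 cells, and 8.23% and 17.3% in cells labelled KD, so these counts lie near the background. Timp1, a secreted metalloprotease inhibitor that also acts on ADAM10, was the higher one (82.0 and 204.6 FPKM in 427 cells, 70.4 and 176.7 in cells labelled KD). The lower ones were Tspan15, a tetraspanin that carries ADAM10 (2.09 and 1.21, and 2.83 and 1.46), and Tspan33 (1.54 and 0.785, and 1.88 and 1.07). In 427 cells Tspan33 passed the minimum FPKM only through the DMSO library, so it could only count as lower there. Timp3, the inhibitor that acts most strongly on ADAM17, was low, between 0.523 and 1.85 FPKM. It stood at 1.42 in 427 DMSO, 1.30 in 427 PMA, 0.523 in KD DMSO and 0.576 in KD PMA. KD GFP had 1.21 and KD GFP + EICD 1.85, so the untransfected KD libraries alone were below 1. Frmd8, which stabilises iRhoms at the cell surface, and Furin, which removes the ADAM prodomain, did not pass 1.5-fold with PMA.

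Genes of ADAM10 or ADAM17 substrates stood mostly higher with PMA: 12 were higher and 2 lower past 1.5-fold, of 16 measured in 427 cells, and 11 were higher and 2 lower of 15 in cells labelled KD. The shares of all loci in those directions were the 8.80% and 14.8%, and the 8.23% and 17.3%, given above for the partners. The list was chosen with earlier results of these data known. Ereg, Epgn and Vcam1 in 427 cells, and Areg, Ereg and Vcam1 in cells labelled KD, reached an FPKM of 1 only with PMA. Those genes could only count as higher. The list median was 1.39 in 427 cells and 1.36 in cells labelled KD. Areg, an EGF receptor ligand, had 3.41 FPKM with DMSO and 57.7 with PMA in 427 cells, and 0.929 and 16.9 in cells labelled KD. Hbegf, another ligand of that receptor, had 9.64 and 52.0, then 6.93 and 31.2. Cd44, a hyaluronan receptor, had 77.9 and 327, then 63.7 and 328, and Cdh1 (E-cadherin) had 123.0 and 230.9, then 140.7 and 236.4. Notch1 was lower in both lines (39.3 and 23.6, then 29.8 and 19.3), as was Il6ra, an interleukin receptor subunit (5.75 and 3.03, then 4.71 and 2.94). With EICD, 4 of 15 were higher and none was lower past 1.5-fold, beside 10.9% of loci higher and 3.11% lower. Of those 4, Tnf (0.198 and 1.10 FPKM) passed the minimum only through the EICD library. Transfection and sorting without EICD also went with higher values: 6 of 14 were higher and none was lower in KD GFP against KD DMSO. Over all loci 8.51% were higher and 13.3% lower. Areg was higher by 3.49 on the log2 scale, and Hbegf stood at 6.93 and 21.2 FPKM. Of those 6, Areg and Ereg passed the minimum only through the KD GFP library, so they could only count as higher. Between the lines with DMSO, none was higher and 1 of 13 was lower in the library labelled KD, beside 9.31% and 6.86% of loci. With PMA, 1 was higher and 4 of 16 were lower, beside 6.73% and 7.08%. The lower one with DMSO, Areg (3.41 and 0.929 FPKM), and Epgn with PMA (1.33 and 0.228) passed the minimum only through the 427 library. Those could only count as lower.

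**Figure D5:**
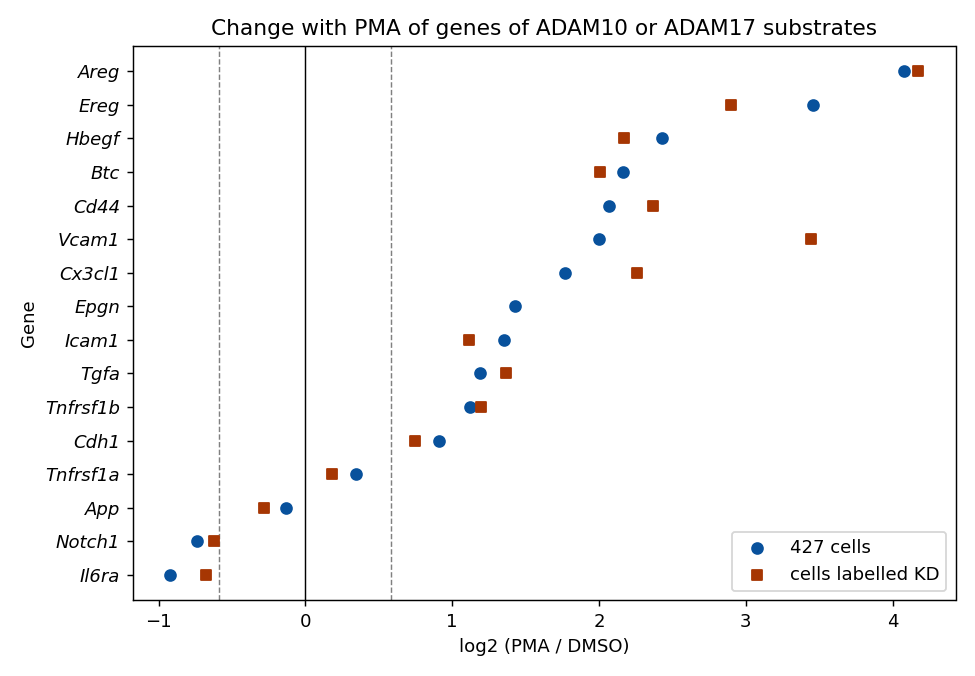
Log2 ratio of PMA to DMSO (horizontal axis) for genes of ADAM10 or ADAM17 substrates with an FPKM of 1 or more, in 427 cells (circles) and in cells labelled KD (squares), with dashed lines at 1.5-fold. Most points lie to the right of the dashed line, with list medians of 1.39 and 1.36, and Notch1 and Il6ra lie to the left in both lines. Genes that reached an FPKM of 1 only with PMA could lie on the right only.

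Genes of substrates of signal peptide peptidase and its relatives gave fewer values, since 7 of 12 reached an FPKM of 1 in the PMA comparisons. With PMA none was higher past 1.5-fold in either line, 2 of 7 were lower in 427 cells (beside 14.8% of loci) and 1 of 7 was lower in cells labelled KD (beside 17.3%). Tmem106b, whose product is a lysosomal membrane protein cut by SPPL2a, was lower in both lines (30.6 and 16.6 FPKM in 427 cells, 31.7 and 17.8 in cells labelled KD). The other lower one in 427 cells, Mgat5 (1.64 and 0.955), passed the minimum FPKM only through the DMSO library, so it could only count as lower. Between GFP and EICD, 3 were higher and 1 was lower of 9, beside 10.9% of loci higher and 3.11% lower. The lower one was Tfrc, the transferrin receptor (145.1 and 94.6), and St14, which carries the construct, was among those higher. The others higher were Tnf (0.198 and 1.10) and Cd74 (0.192 and 1.38). Both passed the minimum FPKM only through the EICD library, so they could only count as higher. Tnf, a substrate of both protease classes, was listed at 0 in both DMSO libraries and stayed at or below 1.10 FPKM elsewhere.

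The loci whose pattern over the 6 libraries lay closest to that of Sppl2b were found among 9831 loci by the root mean square distance of centred log2 FPKM. The closest were Hip1 (distance 0.0355), which encodes an endocytic adaptor, and Wdhd1 (0.0358), which encodes a replication factor. Hip1 had an FPKM of 20.1 in 427 DMSO, 13 in 427 PMA, 25.8 in KD DMSO, 17.6 in KD PMA, 21.8 in KD GFP and 25.6 in KD GFP + EICD. As for Sppl2b, each PMA library was the lower of its line and each library labelled KD was above the 427 library at the same treatment. Because Hip1 was chosen by its distance over these same libraries, this likeness was set by the choice.

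Promoters, taken as 250 bases before to 50 bases after a RefSeq start site on GRCm38.p6, were found for 7 of the 9 genes and were searched on both strands for TGANTCA and TGACGTCA, motifs bound by AP-1 and CREB family factors. Rhbdf1 and Rhbdf2 had no entry. Only Sppl2b held TGANTCA, in 1 of its 2 promoters (chr10:80862705-80863004, plus strand), beside 7.79% of all 32544 promoters, and none of the 7 genes held TGACGTCA, beside 1.80%. This promoter belongs to a start site inside the gene, and the promoter of the annotated start at 80855275 held no match. The site starts 98 bases before the internal start site. The stretch around it (chr10:80862837-80862883) is shown because it was the only match, with the motif in capitals, and was chosen after the values were seen.
Sppl2b promoter: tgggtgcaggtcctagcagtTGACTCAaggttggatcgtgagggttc
The match is a description of these letters and carries no measurement of binding.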

How the data were processed

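Poly(A) RNA of 6 libraries was prepared with a TruSeq RNA kit and sequenced in pairs. The deposited FPKM values were made by the authors against GRCm38, and their processing notes name TopHat2 2.1.1, Cufflinks and Cuffdiff 2.1.1, and STAR 2.4.0b without a role. No strand setting is stated. Reads were not used here. Log2 ratios were taken with 0.01 added to both FPKM values. A locus entered a comparison when either library gave it an FPKM of at least 1, and shares past 1.5-fold and 2-fold were counted over all of them. A locus at the minimum in a single library of a comparison could only be counted as higher in that library. No test was run, since each condition had 1 library. Library size was inferred from the smallest FPKM steps (at most 0.05) of genes with transcripts of at least 2500 bases, and fragments per gene from that depth and the longest transcript. All 9 genes were named in full. From the lists, counts past 1.5-fold were given in the comparisons described, with examples, and some genes that these rules name are not reported here. The genes and lists were chosen with earlier results of these data known. Alternatives changed the added amount, the minimum FPKM, the scaling and the row used for a symbol. The self-test ran on simulated data. Python 3.11.15, NumPy 2.4.6, pandas 2.3.3, Biopython 1.88 and matplotlib 3.10.9 were used.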

Additional observations from a re-analysis of the deposited data

Results flagged for a closer look

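The PMA difference of Hm13 had opposite signs in the lines, 0.04 in 427 cells and -0.21 in cells labelled KD, a difference of -0.255 on the log2 scale that was not tested. That of Adam17 was -0.06 and 0.09, a difference of 0.1579 that was not tested either. Scaled to an equal median ratio, Adam17 in 427 cells stood at 0.03 and the signs no longer differed, and scaled to an equal FPKM sum Hm13 stood at -0.21 and -0.18. With 1 library on each side, neither could be set against a spread between replicates.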

How the results depend on the processing

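No paired analysis was possible because each condition had 1 library, so that the groups share no more than 1 replicate number. An additive fit of line and PMA over the 4 untransfected libraries, which leaves 1 residual degree of freedom, was not run. Of 372 log2 differences recomputed for single genes, 306 moved by less than their counting error, 66 moved by more, and none that had passed 1.5-fold changed sign. The number of the 9 genes past 1.5-fold became 1 for KD GFP against KD DMSO with 1 added to both values, with a minimum FPKM of 10, with median-ratio scaling and without the Hm13 row (chosen after seeing the data), against 2 as reported. With a minimum FPKM of 10, it became 0 in both comparisons of lines, against 1, because Psen2 was no longer counted, and 1 for EICD against GFP, against 2. It became 2 for PMA in cells labelled KD with upper-quartile or median-ratio scaling, against 1. Scaling to an equal FPKM sum gave 9 in both comparisons of lines and 1 for EICD against GFP.

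The share of loci past 1.5-fold depended on the minimum, at 26.6% to 36.5% with 0.1 and 7.21% to 18.3% with 10, and reached 89.8% and 96.0% between the lines with an equal FPKM sum. Of the loci past 1.5-fold, the percentage that was higher went from 37.2 to 48.8 (PMA, 427 cells), from 32.2 to 47.1 (PMA, cells labelled KD) and from 39.1 to 49.1 (KD GFP against KD DMSO) with median-ratio scaling. With an equal FPKM sum it became 14.8 for PMA in 427 cells, went from 77.9 to 46.3 for EICD, and from 57.6 to 98.5 and from 48.8 to 99 between the lines with DMSO and PMA. Single libraries limit every value, and the low fragment numbers of Psen2 give its differences the widest counting intervals.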
